A study of Mus musculus with 12 samples.

Results

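PERK-cKO and WT mouse T cells were compared after polyclonal stimulation, in which anti-CD3 and anti-CD28 antibodies act on the T cell receptor and its costimulatory receptor without antigen. The comparison took 6 of 12 RNA-Seq libraries, 3 of PERK-cKO T cells and 3 of WT T cells, stimulated for 3 days. The sources used here differ on that time, and another of them gives a longer one. The T cells came from the spleen and were cultured with serum and antibiotics. In PERK-cKO mice a floxed Eif2ak3 allele, the gene of PERK, is deleted by Cre under the CD4 promoter on the B6 background, a driver that acts in the thymus and so reaches both CD4+ and CD8+ T cells. The WT cells carried no label beyond wild type, and the age of the mice is not given in the sources used here. The labels do not say whether the 3 libraries of a group came from separate mice or cultures, so p-values measure only the spread between these libraries. The other 6 libraries, stimulated for 4 days with allogeneic antigen-presenting cells, were used only where the 2 stimulations were set against each other.

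PERK is a kinase in the membrane of the endoplasmic reticulum (ER). When unfolded proteins build up there, it phosphorylates the translation factor eIF2α, which slows protein synthesis in general and raises the translation of the transcription factor ATF4, whose targets include amino acid transporters, tRNA synthetases and the factor CHOP. The unfolded protein response also raises ER chaperones and ER-associated degradation (ERAD), which carries misfolded proteins back to the cytosol. Activated T cells turn on glycolysis, partly through the hypoxia-inducible factor HIF-1, and enter the cell cycle within days of stimulation.

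The deposited names of the rows did not match the positions at which reads had been counted, so every row was assigned to the gene whose exons lay at its printed positions in GRCm38. Of the 13386 rows assigned in this way, 10703 genes were made, and 3937 of them had enough counts to be tested. Levels are given as placed CPM, a gene's assigned counts relative to the library's total of assigned counts, on the usual CPM scale, after TMM scaling, which sets library factors so that most genes do not differ. They are not per length and are not compared between genes. A gene was usually seen through a small piece of its exons: the median over tested genes was 548 exonic bases, which made up 16.3% of the bases of the rows assigned to the gene, and reads from the remainder of such a row cannot be told apart from the gene's own.

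Total counts ran from 3275023 to 4631908 per library and assigned counts from 1619634 to 2327503, so 3 counts in a library were worth 1.33 to 1.82 CPM. One WT library, replicate 1, carried 12.1% of its assigned counts on Gm42418, a gene model that overlaps ribosomal RNA sequence, against 1.001% to 5.65% in the other 5. Of 20 T cell marker genes, 8 were assigned rows, and all 8 were detected. Their summed level was 6119 to 6391 CPM in PERK-cKO and 4908 to 5065 CPM in WT. Thy1, a surface marker of T cells, made up 54.7% to 55.8% of these counts in PERK-cKO and 43.4% to 46.1% in WT. Scaled to these marker genes instead of by TMM, the median change of all genes moved from 0.00 to -0.32 on the log2 scale and 10.1% rather than 50.3% of calls were higher in PERK-cKO. Calls of several larger increases were lost under that scaling as well.

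Eif2ak3 itself was read from 5 stretches of its exons, together 563 bases between positions 70858468 and 70892718 of chromosome 6. Its level was 51.4, 46.1 and 48.0 CPM in the PERK-cKO libraries and 81.7, 60.4 and 45.2 CPM in the WT libraries. The groups overlapped, because the lowest WT library lay below all 3 PERK-cKO libraries. The log2 fold change was -0.36 ± 0.19 (SE) and did not pass the test (adjusted p = 0.171, quasi-likelihood test of edgeR, p adjusted by Benjamini-Hochberg over all tested genes, as throughout). Without WT replicate 3 it was -0.55 with an adjusted p of 0.0226, and without WT replicate 1 it was -0.15 with an adjusted p of 0.619 (edgeR). Which exons were deleted is not given in the sources used here, so these stretches may lie outside the deletion and do not check the genotype.

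Over all 3937 genes, 1250 (31.8%) passed an adjusted p of 0.05, 629 (16%) higher and 621 (15.8%) lower in PERK-cKO. Decreases were the larger changes: of the 306 called genes with a log2 fold change beyond 1, 229 were lower and 77 higher. The first principal component separated the genotypes and held 63.8% of the variance. Among the functional gene lists with at least 5 tested members, the hypoxia-response genes had the lowest median log2 fold change, at -1.06, beside a median of 0.00 over all genes. The lists were drawn up with earlier results of these data known, so this order is a description.

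**Figure D1:**
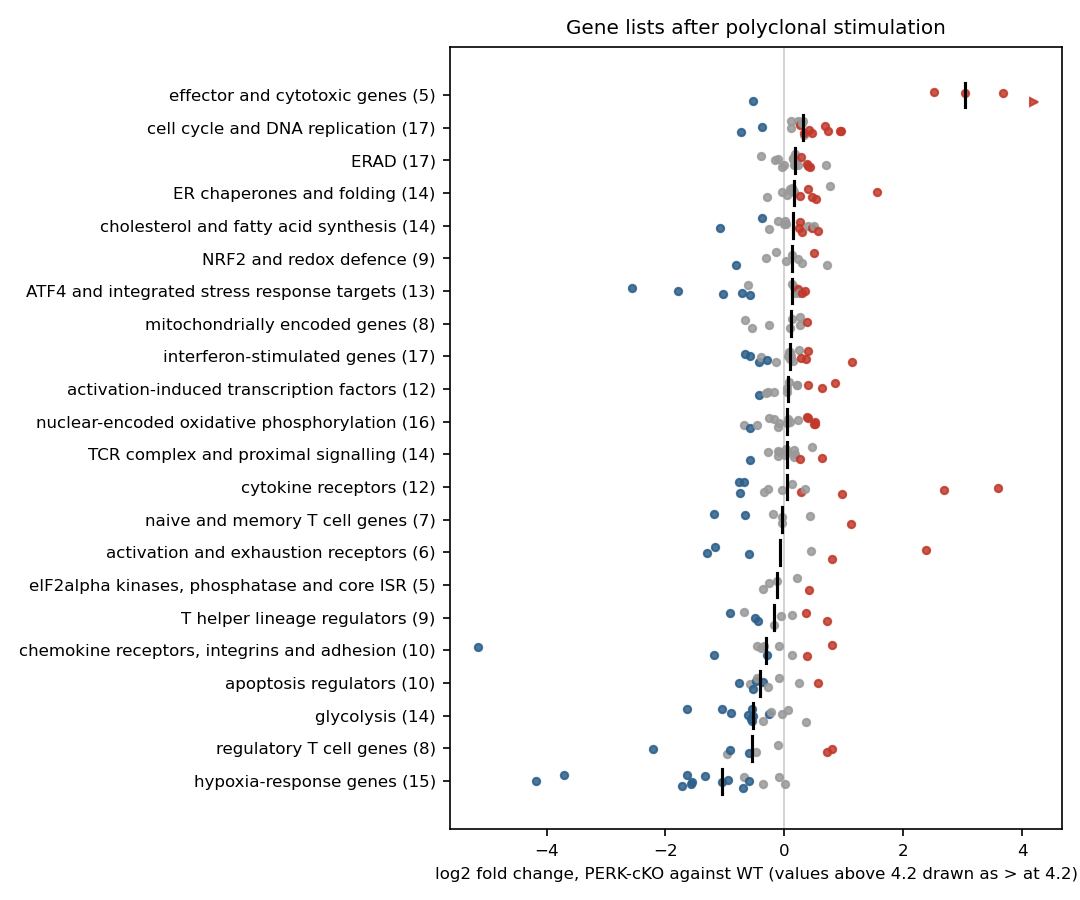
Log2 fold change of PERK-cKO against WT after polyclonal stimulation for each tested member of the gene lists (number tested in parentheses). Red points passed the test as higher, blue points as lower, grey points did not pass, and black bars are medians, which run from -1.06 for hypoxia-response genes to 0.32 for cell cycle genes and 3.03 for the 5 effector and cytotoxic genes. Several of those 5 genes passed the count filter only through their PERK-cKO counts.

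Ranked by fold change among called, well-expressed genes whose genotypes did not overlap (average log2 CPM of at least 5; 43.6% of all tested genes had no overlap), the increases were led by Peg10, a gene of retrotransposon origin, and Havcr2, which encodes the inhibitory receptor TIM-3. Peg10, whose row covered only its own exons, had 71.4, 75.2 and 73.6 CPM in PERK-cKO and 7.52, 11.8 and 6.38 CPM in WT. Its log2 fold change was 3.08 ± 0.22 (adjusted p = 7.12e-08). Havcr2 was at 183, 214 and 183 CPM in PERK-cKO against 37.1, 41.9 and 31.9 CPM in WT, a log2 fold change of 2.38 ± 0.13 (adjusted p = 4.71e-09). The next were Tmem254a (2.09), which has near-identical copies that could share its reads, Myo1f (1.97), an unconventional myosin, Ms4a4b (1.88), a T cell membrane protein, and Osr2 (1.82), a zinc finger transcription factor. Lad1 (1.58), Osbpl3 (1.55) and the protease inhibitor Serpine2 (1.49) followed.

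The decreases were larger. Selenbp1, a selenium-binding protein with methanethiol oxidase activity, was at 6.21, 17.6 and 13.05 CPM in PERK-cKO and at 222, 213 and 207 CPM in WT, a log2 fold change of -4.18 ± 0.20 (adjusted p = 8.35e-10). Zcchc24, a zinc finger protein, was at 11.97, 11.5 and 8.87 CPM against 136, 129 and 128 CPM (-3.59 ± 0.16), and 73.3% of its row lay inside its exons. Sema4f, a semaphorin, was lower by a similar margin (-3.44). The class Ib gene H2-Q2 (-3.34), whose relatives are close enough to share reads, and Rragd (-3.22), a Rag GTPase that signals amino acid supply to mTORC1, came next. They were followed by Mgll (-2.59), a lipase that cleaves monoacylglycerols, the lipoprotein receptor Vldlr (-2.56), the Notch ligand Jag2 (-2.41), the surface glycoprotein Cd24a (-2.31) and the F-box protein Fbxo10 (-2.27). A further 122 predicted gene models met the same criteria and were not ranked.

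The hypoxia-response genes were lower in PERK-cKO as a list. HIF-1 is stable when oxygen is short and in activated T cells also under normal oxygen, and it binds promoters and enhancers at the core letters ACGTG. Of 49 listed genes, 15 were tested: 11 fell, none rose, and 14 of 15 had values below 0. The share called lower was 73.3%, beside 15.8% of all genes, and it was 10 to 12 of 15 when any one library was left out.

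The largest decrease of the list was that of Selenbp1 (-4.18), described among the largest changes. Hilpda, a lipid droplet protein that restrains fat breakdown in low oxygen, gave the fullest measurement, with 99.7% of its row inside its exons. It was at 466, 432 and 339 CPM in PERK-cKO and at 1166, 1036 and 1479 CPM in WT. All WT libraries lay more than 2-fold above all PERK-cKO libraries, and the log2 fold change was -1.57 ± 0.13 (adjusted p = 5.22e-07). Mxi1, an antagonist of MYC, was at 117, 121 and 115 CPM against 310, 300 and 277 CPM (-1.33 ± 0.09, adjusted p = 7.12e-08). Adm, the vasodilator peptide adrenomedullin, was at the edge of detection in PERK-cKO, with 6, 1 and 2 counts, and had 46, 30 and 43 counts in WT (adjusted p = 1.75e-05). The groups did not overlap for any of these 3 genes.

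Plod2, a lysyl hydroxylase of collagen, fell from 12.9, 14.8 and 17.02 CPM in WT to 3.99, 4.85 and 4.70 CPM (log2 fold change -1.72 ± 0.33). Tet1, which oxidises methylated cytosine, fell from 19.9, 21.99 and 20.7 CPM to 7.09, 6.67 and 7.31 CPM (-1.56 ± 0.28). Both were low genes whose libraries nonetheless separated by genotype. The glucose transporter Slc2a1 was at 3.55, 3.03 and 6.26 CPM against 10.2, 18.4 and 11.7 CPM (-1.64 ± 0.39, adjusted p = 0.00502), but only 2.67% of its row lay inside its exons. The other called members were Pfkfb4 (-1.06), which makes a regulator of glycolysis, the histone demethylase Kdm4b (-0.95), the pyruvate dehydrogenase kinase Pdk1 (-0.69) and Narf (-0.59). The share of the rows inside the exons was also small for Kdm4b (2.6%) and Pdk1 (1.53%), and it was 15.1% for Selenbp1. Over the 15 tested members the median share was 14.6%, beside 16.3% over all tested genes. The call of Pfkfb4 was lost with DESeq2 and without PERK-cKO replicate 1 (-0.76), WT replicate 1 (-1.12) or WT replicate 3 (-0.88). Rora (-0.68), Pfkfb3 (-0.36), Arnt (-0.10), which encodes the partner subunit of HIF-1, and Car12 (0.01) did not pass.

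**Figure D2:**
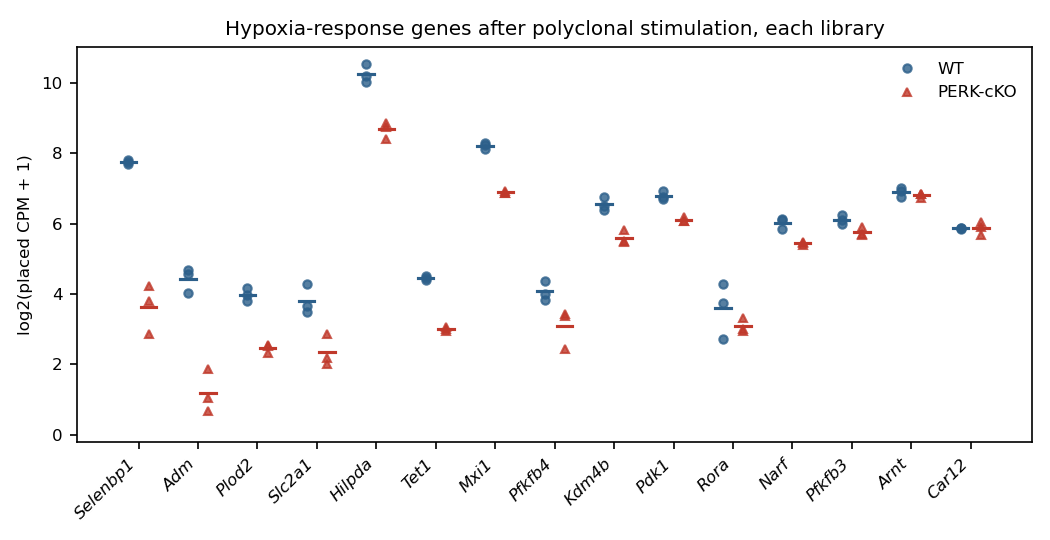
Level of the 15 tested hypoxia-response genes in each library, as log2 of placed CPM plus 1, with WT as circles, PERK-cKO as triangles and bars at group means, ordered by fold change. WT lay above PERK-cKO without overlap for all 11 called genes, from Selenbp1 (log2 fold change -4.18) to Narf (-0.59), and the groups overlapped for Rora, Arnt and Car12.

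Because the hypoxia-response list moved together, the 250 bases before each RefSeq start (GRCm38.p6) were searched for ACGTG on both strands. Of the 11 called genes 9 had an entry, and 4 of these (44.4%) held the letters: Mxi1, Selenbp1, Slc2a1 and Hilpda. The share was 25.7% over the 2828 tested genes with an entry and 18.5% over all 27025 genes of the table. The letters also stood before 4 of 8 glycolysis genes that fell, 3 of 4 ER chaperone genes that rose and 2 of 4 ERAD genes that rose, a larger share than in the fallen hypoxia-response genes in both of these lists that rose. A match describes the letters only and is not a bound site. The stretches of Mxi1, Selenbp1 and Slc2a1 are printed to show where the letters lie in 3 of the genes that fell, in the direction of transcription, with the match in capitals (CACGT is ACGTG read on the other strand).
Mxi1, chr19:53329272-53329371, plus strand: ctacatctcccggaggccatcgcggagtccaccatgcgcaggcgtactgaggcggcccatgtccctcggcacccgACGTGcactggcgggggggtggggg
Selenbp1, chr3:94932833-94932903, plus strand: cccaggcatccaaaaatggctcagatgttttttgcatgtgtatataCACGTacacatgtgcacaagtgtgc
Slc2a1, chr4:119108614-119108713, plus strand: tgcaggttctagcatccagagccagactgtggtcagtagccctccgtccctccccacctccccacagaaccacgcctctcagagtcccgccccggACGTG
The first base of the match lay 66 bases before the start in Mxi1, 204 in Selenbp1 and 36 in Slc2a1, and the Slc2a1 stretch ends at the match because annotated exons begin there.

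Genes of glycolysis were also lower. Of 27 listed, 14 were tested, 9 fell and none rose (64.3% called lower, beside 15.8% of all genes), with a median log2 fold change of -0.53. The list shares 3 tested genes with the hypoxia-response list, and without them 7 of 11 fell. The call count was 6 without WT replicate 1. Pfkm, the muscle form of phosphofructokinase, was at 104, 121 and 102 CPM in PERK-cKO and 239, 203 and 163 CPM in WT (-0.89 ± 0.13). Its platelet form Pfkp was at 821, 847 and 839 CPM against 1284, 1248 and 1142 CPM (-0.55 ± 0.08, adjusted p = 7.61e-05). Hexokinase 1 (Hk1, -0.56), which traps glucose in the cell, phosphoglycerate mutase (Pgam1, -0.61) and enolase (Eno1, -0.53) fell by similar amounts. The decreases were spread from the first to the late steps of the pathway, and the genotypes did not overlap for any of these 5 genes. Gapdh, Ldha and Pgk1 were not among the tested genes.

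The allogeneic comparison gave other values for both lists. The median log2 fold change there was 0.05 for the hypoxia-response genes and -0.08 for glycolysis, with 1 and 4 genes called lower. The interaction, which is the polyclonal minus the allogeneic log2 fold change fitted over all 12 libraries, was called for 33.9% of 4402 genes, and the allogeneic comparison itself called 33% of its genes. Of the 15 hypoxia-response genes, 9 were called in it, all more negative after polyclonal stimulation, among them Selenbp1 (-4.52), Hilpda (-1.79) and Mxi1 (-1.08). Pdk1 was lower in PERK-cKO after both stimulations (-0.69 and -0.96), with an interaction of 0.28 that did not pass (adjusted p = 0.253). Of the 14 glycolysis genes, 4 were called more negative in the interaction and 1 more positive, a share near that of all genes. Pfkm (-0.91) and Hk1 (-0.47) were among the 4, whereas the interactions of Pfkp (-0.05), Eno1 (-0.11) and Pgam1 (-0.36) did not pass. The stimulations may also differ in days of culture, and the stimulus and the time cannot be told apart.

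Most of the few tested cytotoxic genes and natural killer receptors were higher in PERK-cKO. Of 32 listed effector genes only 5 were tested, and 4 rose, where 16% of all genes did. Gzme, Klrc1 and Klrk1 were too low in WT to pass the count filter without their PERK-cKO counts. The share that rose was therefore partly set by the filter and is a description. Gzme, a granzyme of the cytotoxic granule, was at 27.9, 37.0 and 25.6 CPM in PERK-cKO and had no count in any WT library, at least 19.1-fold higher against a floor of 3 counts per library. Klrc1, a subunit of the NKG2 receptors, was read wholly inside its exons, at 40.3, 40.6 and 28.7 CPM against 2.15, 4.09 and 2.13 CPM (log2 fold change 3.67 ± 0.33, adjusted p = 1.08e-06). Its partner Klrd1 (CD94) was at 39.9, 39.4 and 36.0 CPM against 8.60, 4.09 and 7.44 CPM (2.51 ± 0.27). Klrk1, the activating receptor NKG2D, rose from 0, 4 and 3 counts in WT to 24, 18 and 19 counts. Srgn, the proteoglycan core of the granules, was the 1 member called lower (-0.52), and its groups overlapped. That call was lost with DESeq2 and without PERK-cKO replicate 2 (-0.45), PERK-cKO replicate 3 (-0.43) or WT replicate 3 (-0.30). Granzyme B, perforin and interferon-γ had no tested row.

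Cd8b1, a chain of the CD8 coreceptor, was at 23.5, 18.8 and 14.6 CPM in PERK-cKO and 7.52, 8.70 and 2.13 CPM in WT (1.63 ± 0.39, adjusted p = 0.0045), from 127 exonic bases that made up 2.98% of its row. It was the only tested gene of the list of CD4 and CD8 lineage genes, since Cd4 and Cd8a had no tested row. A larger share of CD8+ cells and more RNA of these genes per cell cannot be told apart in bulk libraries. The marker list of natural killer cells was represented by Ncr1 alone, at 0 to 0.606 CPM in PERK-cKO and 0 in WT.

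Receptor genes moved in both directions. Of 12 tested cytokine receptors 4 rose (33.3%, beside 16% of all genes) and 3 fell (25%, beside 15.8%). Csf2rb, the shared signalling chain for GM-CSF and related cytokines, was at 29.3, 14.5 and 30.8 CPM against 3.22, 6.14 and 2.13 CPM (2.69 ± 0.40). Its near copy Csf2rb2 was at 38.6, 35.2 and 30.3 CPM against 4.30, 1.53 and 2.66 CPM (3.597 ± 0.33), and reads of the pair may be shared. Both genes passed the count filter only through their PERK-cKO counts, so the share of receptors that rose was partly set by the filter. Ifngr1, the ligand-binding chain for interferon-γ, rose by 0.96 ± 0.17. Tnfrsf1a, a TNF receptor, was lower at -0.76 ± 0.17, and Tgfbr1, a TGF-β receptor, at -0.75 ± 0.10. Of the secreted cytokines and chemokines only Ccl22 was tested, and it rose by 0.53 ± 0.13, a call that did not hold when libraries were scaled to T cell marker genes. Ifng, Csf2 and Tnf were not tested.

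Some genes that mark basophils and mast cells were higher in PERK-cKO. Fcer1a, the α chain of the high-affinity IgE receptor, had 14, 12 and 12 counts in PERK-cKO and 2, 1 and 0 counts in WT. The histamine enzyme Hdc had 31, 19 and 28 counts against 3, 4 and 12, and the factor Gata2 9, 10 and 11 counts against 1, 2 and 1. Itga2b, an integrin of platelets and mast cells, was at 30, 29 and 28 counts against 6, 6 and 3 (log2 fold change 2.49 ± 0.39, adjusted p = 0.000174). Of the list of 15 basophil and mast cell genes 8 had counts, and 3 were tested. Fcer1a and Hdc passed as higher, and Cyp11a1 as lower (-0.47 ± 0.13), a call lost with DESeq2 (-0.46) and with scaling by library size only (-0.42). Fcer1a, Hdc and Itga2b were too low in WT to pass the count filter without their PERK-cKO counts, which favours increases among them. Cyp11a1 was well counted in both genotypes. The summed level of the list was 90.9 to 94.5 CPM in PERK-cKO and 80.1 to 93.1 CPM in WT, most of it from Cyp11a1. Csf2rb, Csf2rb2 and Havcr2 are also expressed by such cells, and the part of these cells in their increases was not tested. The macrophage marker Lyz2 had 0 to 2 counts, although the summed level of that list was 105 to 141 CPM, mostly from Ctss. Markers of B cells summed to 9.67 to 21.7 CPM and those of neutrophils to 0 to 5.32 CPM, with no member called. The dendritic cell list was at 43.0 to 44.3 CPM in PERK-cKO and 29.8 to 36.8 CPM in WT, and its 1 tested member, the class II gene H2-Eb1, rose (0.68 ± 0.19), a call lost with DESeq2, under the marker scaling and without WT replicate 3.

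**Figure D3:**
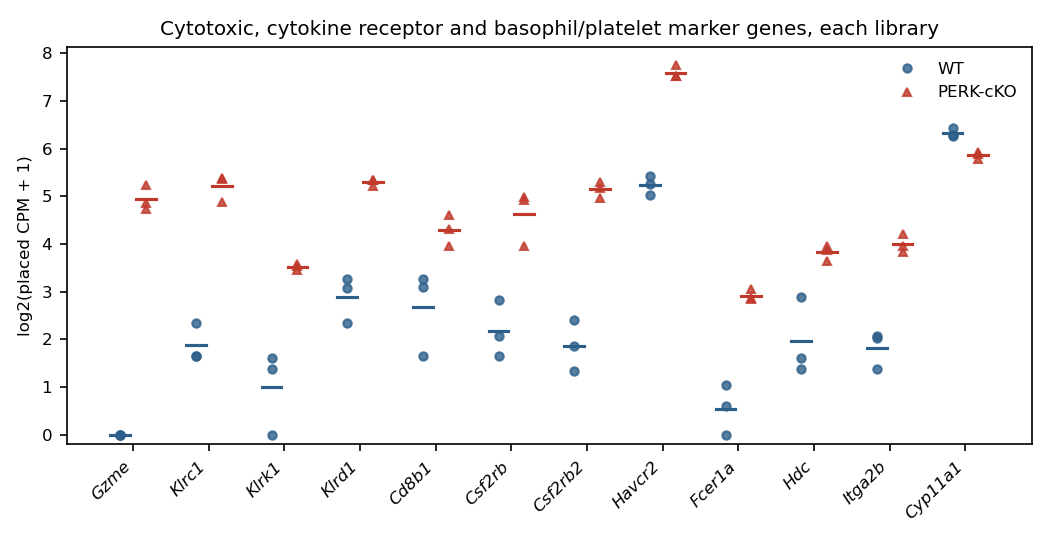
Level in each library of cytotoxic and natural killer receptor genes, Cd8b1, the GM-CSF receptor chains, Havcr2 and marker genes of basophils and platelets, as log2 of placed CPM plus 1, with WT as circles, PERK-cKO as triangles and bars at group means. PERK-cKO libraries lay above WT for every gene but Cyp11a1, whose 3 PERK-cKO libraries were lower (log2 fold change -0.47), and Gzme was at 0 in all 3 WT libraries.

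Regulators and surface molecules of T cells were mixed. The inhibitory receptor Btla fell from 785, 719 and 732 CPM in WT to 264, 325 and 318 CPM (-1.30 ± 0.09, adjusted p = 8.69e-08), and the costimulatory receptors Slamf1 (-1.16 ± 0.11) and Tnfrsf9 (-0.59 ± 0.09) fell with it, while Havcr2 rose. Thy1 was at 3542, 3377 and 3415 CPM against 2272, 2246 and 2131 CPM (0.64 ± 0.07), and Cd5, a brake on T cell receptor signals, was lower (-0.58 ± 0.08). Of the 14 tested genes of the T cell receptor complex and proximal signalling, 2 rose (14.3%, beside 16% of all genes) and 1 fell (7.14%, beside 15.8%) by TMM. The list median was 0.04, and 1 rose and 7 fell under the marker scaling. Without PERK-cKO replicate 1, PERK-cKO replicate 2 or WT replicate 1, 1 rose. Itga7, a laminin-binding integrin, was at 1.33, 2.42 and 1.04 CPM against 60.7, 59.3 and 51.6 CPM (-5.15 ± 0.31).

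Among genes tied to regulatory T cells, Ikzf2 (Helios) rose from 47.8, 58.3 and 52.6 CPM to 95.3, 80.6 and 84.0 CPM (0.71 ± 0.14, adjusted p = 0.000939). Its relative Ikzf4 (Eos) went the other way, from 297, 285 and 259 CPM to 152, 159 and 136 CPM (-0.91 ± 0.10). The receptor Gpr83 was low in both groups and lower in PERK-cKO (-2.21 ± 0.54). Foxp3 was not tested, nor was Tbx21, so no lineage call rests on the defining factors. Stat5a (-0.44 ± 0.10) and Stat5b (-0.49 ± 0.08), which carry signals of the IL-2 receptor, both fell. Of 12 activation-induced transcription factors, Nr4a3 rose most, from 867, 884 and 789 CPM to 1461, 1623 and 1513 CPM (0.86 ± 0.08), with Nfkbid (0.64 ± 0.10) and Irf8 (0.40 ± 0.08), and Nfatc2 fell (-0.43 ± 0.10). The called shares were 25% higher and 8.33% lower, beside 16% and 15.8% of all genes. The call of Irf8 was lost when libraries were scaled to T cell marker genes.

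The pathways downstream of PERK were only partly covered. Of 22 core genes of the integrated stress response 5 were tested and 1 was called, as higher (20%, beside 16% of all genes). That gene was Eif2b3, a subunit of the exchange factor of eIF2 (0.41 ± 0.12). Its call was lost with DESeq2 (0.41), with scaling to T cell marker genes (0.08), and without PERK-cKO replicate 1 (0.25) or WT replicate 1 (0.32). Ddit3 (CHOP) and Nfe2l2, a further substrate of PERK, were not tested. Of 13 tested ATF4 targets 5 fell and 3 rose, beside a background of 15.8% and 16%. The decreases were Vldlr, at 9.75, 13.9 and 15.1 CPM against 76.3, 73.1 and 78.2 CPM, Aldh1l2 (-1.79 ± 0.46) of mitochondrial folate metabolism, Cth (-1.04 ± 0.20) of cysteine synthesis, the stress protein Nupr1 (-0.71 ± 0.13) and the mitochondrial protease Lonp1 (-0.58 ± 0.08). Of those that rose, the threonyl-tRNA synthetase Tars had the largest change (0.34 ± 0.07), and no gene of the list was called higher when libraries were scaled to T cell marker genes. Asns, the asparagine synthetase and a frequent readout of ATF4, was at 0.18 ± 0.08 and did not pass (adjusted p = 0.098). The letters TGATGCAA, a composite site of ATF4 and CEBP, stood before the start of 2 of the 3 fallen genes with a promoter entry (Vldlr and Nupr1), of 1 of the 3 that rose (Tars) and of 0.672% of tested genes.

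Most ER chaperone and ERAD genes that were called had small increases by TMM, and all but 1 of the 9 calls were lost when scaled to T cell marker genes. When scaled to T cell marker genes, 167 of all 3937 genes were called higher and 1490 lower. Of 14 tested ER chaperone and folding genes 5 rose and none fell (35.7% higher, beside 16% of all genes, median 0.16), but 1 rose and 4 fell under the marker scaling, and 3 rose without PERK-cKO replicate 1 or WT replicate 1. Hyou1, a large ER chaperone of the HSP70 family, was at 399, 426 and 440 CPM against 292, 299 and 286 CPM (0.53 ± 0.08, adjusted p = 0.000199). Pdia4, a disulfide isomerase, was at 1309, 1166 and 1262 CPM against 945, 982 and 902 CPM (0.40 ± 0.08). Sec24d, a coat protein of vesicles that leave the ER, had the largest change (1.56 ± 0.45), from 23, 18 and 11 counts in PERK-cKO and 5, 9 and 3 counts in WT. It stayed called under the marker scaling (1.24), but not with DESeq2 (1.60) or without PERK-cKO replicate 1 (1.42), PERK-cKO replicate 2 (1.42), WT replicate 1 (1.47) or WT replicate 3 (1.27). Srpr, of the receptor that docks ribosomes at the ER, changed by 0.46 ± 0.12. The PERK-cKO libraries of these genes were all above WT.

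Of 17 tested ERAD genes 4 rose and none fell (23.5% higher, beside 16% of all genes, median 0.17), and 0 rose and 4 fell under the marker scaling. The called genes were Ube2j2 (0.43 ± 0.08), an ER-anchored ubiquitin-conjugating enzyme, Rad23b (0.40 ± 0.08), which hands ubiquitinated proteins to the proteasome, Ubxn4 (0.37 ± 0.09), a cofactor of the extracting ATPase p97, and Nploc4 (0.28 ± 0.09), another such cofactor, whose value was -0.05 under the marker scaling and whose call was lost without any one library other than WT replicate 2 (0.22 to 0.30 over all 6). Sel1l, the scaffold of the HRD1 ubiquitin ligase, was at 165, 189 and 197 CPM against 222, 201 and 195 CPM (-0.16 ± 0.10, adjusted p = 0.234), with overlapping groups. Scaled to T cell marker genes, Sel1l was at -0.49 and passed (adjusted p = 0.00208, edgeR). The interaction of Sel1l with the stimulation was also -0.49 (adjusted p = 0.019). Erlec1 was not tested.

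**Figure D4:**
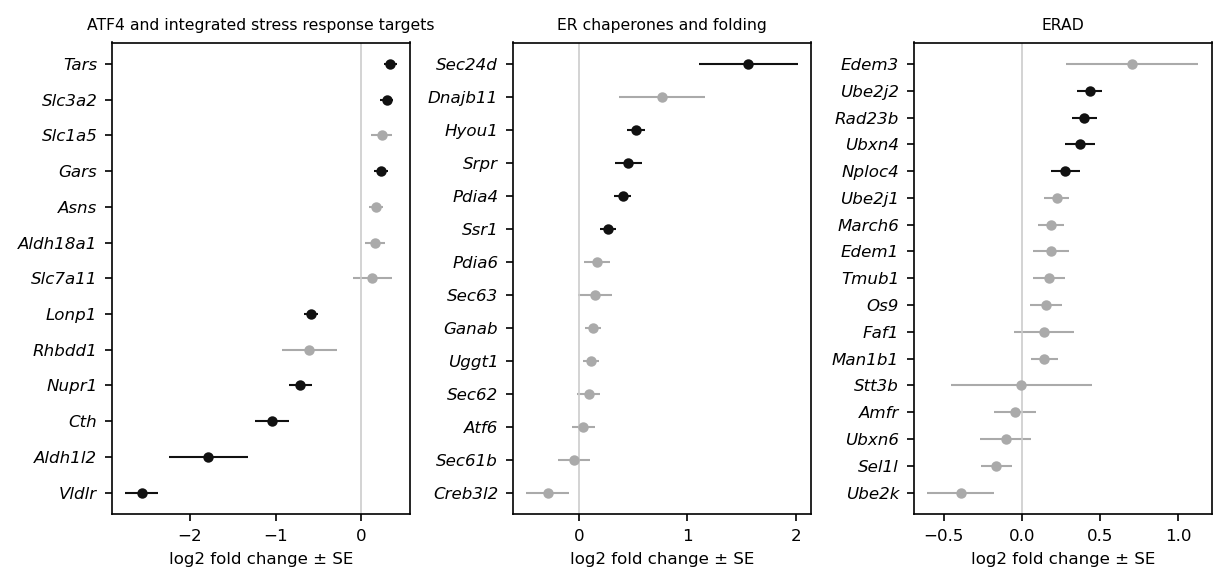
Log2 fold change of PERK-cKO against WT with its standard error for each tested ATF4 target, ER chaperone or folding gene and ERAD gene, where black points passed the test and grey points did not. ATF4 targets ran from -2.56 (Vldlr) to 0.34 (Tars), while no ER chaperone or ERAD gene was called lower by TMM.

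Cell cycle genes were higher in PERK-cKO after polyclonal stimulation. Of 67 listed 17 were tested, 8 rose (47.1%, beside 16% of all genes) and 2 fell (11.8%, beside 15.8%), with a median of 0.32, and 4 rose and 2 fell when scaled to T cell marker genes. Ccne1 (cyclin E), which drives entry into S phase, was at 436, 391.6 and 440 CPM against 224, 215 and 221 CPM (0.94 ± 0.09, adjusted p = 1.36e-06). The transcriptional repressor E2f7 (0.94 ± 0.13), the helicase subunit Mcm2 (0.74 ± 0.10) and the ribonucleotide reductase subunits Rrm2 (0.68 ± 0.13) and Rrm1 (0.46 ± 0.09) rose as well. The value of E2f7 was 0.41 and did not pass when at least 50% of a row had to lie inside the gene. The inhibitor Cdkn1a (p21) fell from 2678, 2617 and 2452 CPM to 1535, 1590 and 1557 CPM (-0.73 ± 0.07), and Cdk6, a kinase of entry into S phase, fell by 0.38 ± 0.09, a call lost with scaling by library size only (-0.32). The genotypes did not overlap in Ccne1 or Cdkn1a.

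After allogeneic stimulation the same list had a median of -0.71, with 14 of 17 genes lower, beside 33% of all genes called there in either direction. The interaction was called for 16 of the 17, beside 33.9% of all genes in either direction. Of these 16, 14 were more positive after polyclonal stimulation, with 1.66 for Ccne1 and 1.48 for Mcm2, and Cdkn1a was among the 2 more negative ones (-1.77). Apoptosis regulators showed the reverse order. After polyclonal stimulation 4 of 10 fell (40%, beside 15.8% of all genes) and 1 rose, with a median of -0.41. The caspase inhibitors Birc2 (-0.53 ± 0.09) and Birc3 (-0.47 ± 0.08) and the survival factor Mcl1 (-0.36 ± 0.08) were lower along with Tnfrsf1a, and the call of Mcl1 was lost with scaling by library size only (-0.31). Casp1, an inflammatory caspase, rose by 0.56 ± 0.15, a call lost under the marker scaling (0.23) and without PERK-cKO replicate 1 (0.43) or WT replicate 1 (0.45). After allogeneic stimulation 8 of the 10 were higher, and the interaction was more negative for 9, beside the same 33% and 33.9% of all genes.

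**Figure D5:**
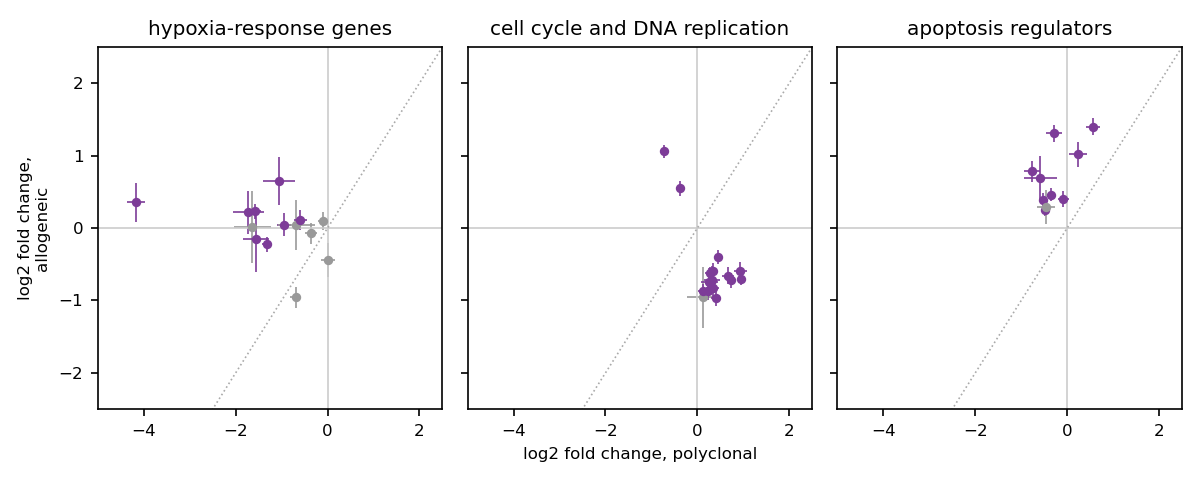
Log2 fold change of PERK-cKO against WT after polyclonal (x axis) and allogeneic stimulation (y axis), with standard errors, for genes tested in both, where purple points had a called interaction and the dotted line marks equal change. Most hypoxia-response genes lay left of 0 with smaller changes on the y axis, with Pdk1 at -0.96 there (Adm, not tested after allogeneic stimulation, is absent), most cell cycle genes lay right and below, and most apoptosis genes lay above the line.

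The other lists were mixed in direction. Of 16 nuclear-encoded genes of oxidative phosphorylation 5 rose (31.2%) and 1 fell (6.25%) by TMM, beside 16% and 15.8% of all genes, and 0 rose and 6 fell under the marker scaling. Among them Uqcrc1 of complex III had 984, 973 and 933 CPM against 623, 723 and 673 CPM (0.52 ± 0.08), and Cox5a of complex IV changed by 0.51 ± 0.10. Of 8 genes of the mitochondrial genome only mt-Cytb was called (0.37 ± 0.12), and the call was lost without PERK-cKO replicate 1 (0.23), WT replicate 1 (0.30) or WT replicate 2 (0.28). Up to 4 were called higher and up to 3 lower with other libraries left out, the first without WT replicate 3 and the second without WT replicate 2. Interferon-stimulated genes were split, with 4 of 17 higher, led by Ifi203 (1.14 ± 0.14), and 4 lower, among them the GTPases Gbp4 (-0.67 ± 0.18) and Gbp6 (-0.42 ± 0.10). Gbp4 was at -0.33 and did not pass when at least 50% of a row had to lie inside the gene. Those shares were each 23.5%, beside 16% and 15.8% of all genes. Without PERK-cKO replicate 3 the count of higher genes was 2, and under the marker scaling 1 rose and 8 fell. Of 14 genes of cholesterol and fatty acid synthesis 5 rose (35.7%) and 2 fell (14.3%), including Acaca, which makes malonyl-CoA (0.56 ± 0.10), and the cholesterol exporter Abca1 (-1.08 ± 0.21). Without WT replicate 1 the count of higher genes was 1, and under the marker scaling 0 rose and 4 fell. Of 9 genes of redox defence 1 rose and 1 fell (11.1% each, beside 16% and 15.8%). The one that rose lost its call with DESeq2, under the marker scaling and without PERK-cKO replicate 1 or WT replicate 1, and 3 fell under the marker scaling.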

How the data were processed

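RNA was extracted with Trizol and libraries were made with random hexamers. The authors deposited raw counts of read pairs per gene name, made with featureCounts 2.0.1 on exons of GENCODE M27 without a strand setting. The submitters' notes name the build mm10, which is GRCm38, whereas M27 is an annotation of GRCm39, and the aligner is not given in the sources used here. No column was left out for want of a sample. Each row's printed exon positions were laid on exons of GENCODE M21 (GRCm38), and rows that covered at least 50 bases of exons of exactly 1 gene, small RNAs aside, were summed under that gene, which kept 50.44% of counts over the 12 libraries. Reads of overlapping or antisense genes cannot be told apart.

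Genes were filtered by filterByExpr and tested with the quasi-likelihood test of edgeR 4.0.16 (R 4.3.3) on the placed counts, TMM-scaled, between the 3 PERK-cKO and 3 WT libraries, with Benjamini-Hochberg adjustment over all genes tested and a threshold of 0.05. The SE is the size of the log2 fold change over the square root of F. The interaction was fitted over all 12 libraries. The fit was also run on simulated data as a check of the code, and no result given here rests on that run. DESeq2 1.42.0, which the paper names for its own analysis, other scalings, filters and placements, a replicate block and each library left out were tried as alternatives. Floors of 3 counts cover counting error only, whereas SEs include the spread between libraries.

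Named genes were Eif2ak3 and the genes measured in the paper, the 10 largest called increases and decreases without overlap at an average log2 CPM of at least 5, up to 6 called members with the largest change of each list, and up to 5 genes per direction of the interaction. Mxi1, Kdm4b, Pdk1, Narf, Eno1, Cdk6, Gata2 and the cell type markers, and the genes under other observations, were named after their values were seen, as were uncalled members of a list. Members and lists were chosen with earlier results of these data known. Lists were described by counts and medians. Genes that met the rule but are not named are not reported here. Promoter sequences are from RefSeq (GRCm38.p6).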

Additional observations from a re-analysis of the deposited data

Results flagged for a closer look

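The change between PERK-cKO and WT differed between the 2 stimulations by the interaction test (polyclonal minus allogeneic log2 fold change, edgeR, 12 libraries, adjusted p under 0.05) for each gene that follows. Sel1l was at -0.49 and Ikzf2 at 0.67. The genes most increased after polyclonal stimulation were chosen on a term of the interaction, which favours positive values. Among them, the values were 1.33 for Havcr2, 0.83 for Tmem254a, 1.12 for Myo1f, 2.65 for Ms4a4b, -2.35 for Lad1 and 1.34 for Osbpl3.

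The 10 most decreased genes were chosen on the same term, which here favours negative values, and 33.9% of all genes were called in it. Their values were -4.52 for Selenbp1, -5.07 for Zcchc24, -3.41 for Sema4f, -4.39 for H2-Q2, -4.12 for Rragd, -4.25 for Mgll, -3.69 for Vldlr, -2.67 for Jag2, -4.21 for Cd24a and -1.95 for Fbxo10.

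Of the largest interactions among genes also called in the polyclonal comparison, Trim30d, an interferon-inducible gene, had a fitted value of -12.60. It had no count in any WT allogeneic library and 624, 601 and 410 counts in the PERK-cKO ones, so that fitted value is not a bound, while after polyclonal stimulation it had 243, 142 and 194 counts in PERK-cKO and 297, 264 and 282 in WT. Basp1, a membrane protein, was at -4.62. Beside Ms4a4b, the most positive values among genes also called in the polyclonal comparison with an average log2 CPM of at least 5 were 1.74 for Chaf1b, a subunit that assembles chromatin at replication forks, 1.66 for Zfp862-ps, 1.66 for Ccne1 and 1.55 for Kif22, a motor of mitotic chromosomes.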

How the results depend on the processing

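Scaled to 8 T cell marker genes, 167 genes were called higher and 1490 lower, Eif2ak3 passed at -0.69, and 4 called increases turned to values below 0: Lck (-0.0687), Ssr1 (-0.0606), Nploc4 (-0.0492) and Scd1 (-0.0606). The marker genes themselves include Thy1, so this scaling rests on a gene that differs between the genotypes. With at least 50% of a row inside the gene's exons, 1008 genes were tested and 339 called (160 higher, 179 lower), since fewer genes enter. A log2 fold change beyond 1 left 306 (77 higher, 229 lower). With 1 library left out, 983 to 1160 genes were called, 451 to 581 higher and 532 to 601 lower, the interaction 1335 to 1411, and Eif2ak3 was -0.55 to -0.15, passing without WT replicate 3. DESeq2 called 961 of 5215 genes. Of 135 named genes, 84 kept their call and direction in every alternative run for them, which does not include the limit on the log2 fold change.

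Replicate numbers did not pair the samples: the deviations of same-numbered libraries correlated at -0.08, 0.06 and -0.06, and 1 of 3 numbers matched best with itself. With the replicate block, 1199 genes were called (594 higher, 605 lower), 1438 in the interaction, and Eif2ak3 was -0.34.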

Other observations

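Genes of ribosome biogenesis were higher in PERK-cKO after polyclonal stimulation. The list was drawn up after values had been seen, so its counts are a description. Of 38 tested genes 26 rose and none fell (68.4%, beside 16% of all genes), with a median log2 fold change of 0.48, and 21 to 25 rose with any 1 library left out. With T cell marker scaling 14 rose and 3 fell. Nol6, a factor of small subunit assembly, had 774, 781 and 804 CPM in PERK-cKO and 463, 492 and 455 CPM in WT (0.74 ± 0.08). Bop1, of large subunit assembly, had 182, 175 and 235 CPM against 93.5, 98.2 and 113 CPM (0.96 ± 0.13), and the rRNA methyltransferase Nop2 changed by 0.63 ± 0.09. No library of one genotype overlapped the other in these genes. After allogeneic stimulation the list median was -0.18, and the interaction was more positive for 24 of 38 and more negative for 1, where 33.9% of all genes were called in either direction.

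Of 11 tested MHC class Ib and class II genes, also listed after values were seen, 7 fell (63.6%, beside 15.8% of all genes) and H2-Eb1 rose, a call lost with DESeq2, with T cell marker scaling and without WT replicate 3. H2-DMa, which helps load peptides on class II, had 180, 165 and 168 CPM against 253, 274 and 249 CPM (-0.60 ± 0.09), H2-DMb2 changed by -0.81 ± 0.13 and H2-Q10 by -1.47 ± 0.14, and related copies may share reads. After allogeneic stimulation 9 of 10 were higher, and the interaction was more negative for 10 of 11. Of all genes, 33% and 33.9% were called in these comparisons, in either direction.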
